A study of Mus musculus with 4 samples.

Results

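The keratin gene family was described here in mammary cells sorted by Lgr6. Its members were taken by symbol, as every row of the deposited gene table named Krt followed by a number and at most 1 letter, which leaves out keratin-associated protein genes and Krtdap. The rule gave 52 of the 24442 genes in the table, 28 of type I and 24 of type II. The cells came from mammary glands of 5-week-old female Lgr6-eGFP-CreErt2 mice, in which a green fluorescent protein and an inducible Cre recombinase are driven from Lgr6. The Lgr6-positive group holds lineage-negative cells sorted as positive, and the Lgr6-negative group holds cells sorted as negative, with 2 libraries of each and 4 in all. As far as the labels say, both groups carried the same allele, and no treatment was given. Which markers defined the lineage, and how the Lgr6-negative cells were gated, is not given in the sources used here. Separate animals are not stated for the replicates, so p-values reflect only how far these libraries differ, and that spread could be technical.

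Keratins are the intermediate filament proteins of epithelial cells. An acidic type I keratin pairs with a basic or neutral type II keratin, and the pair marks the kind of epithelium: Krt8 with Krt18 in simple and luminal cells, Krt5 with Krt14 in basal cells, Krt1 with Krt10 in the layers above the basal layer of the epidermis, and Krt4 with Krt13 in moist stratified epithelia. Krt6 and Krt16 are known from wounds and hair follicles, and a further set makes the hair shaft and inner root sheath. In the mammary gland, an inner layer of luminal cells with Krt8 and Krt18 lies on an outer layer of basal myoepithelial cells with Krt5 and Krt14.

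The libraries held 6819127 to 7167465 counts. Lgr6 itself gave 172 and 655 counts in Lgr6-positive libraries, against 3 and 10 in Lgr6-negative ones (adjusted p = 0.0510 in edgeR's quasi-likelihood test). Of 7 epithelial markers other than keratins, 5 rose and 0 fell in Lgr6-positive cells, where 4.49% of all 11661 tested genes were called higher, and their summed level was 1653 to 1752 CPM in the Lgr6-positive and 66.6 to 72.3 CPM in the Lgr6-negative libraries. CPM here is the usual count relative to library size, after scaling by TMM, a trimmed mean that makes libraries comparable. Epcam, the epithelial adhesion molecule, stood at 548 and 544 CPM against 20.4 and 12.1 CPM. All 10 leukocyte markers fell, from a summed 30424 and 34469 CPM in Lgr6-negative to 1784 and 2156 CPM in Lgr6-positive libraries; 4.57% of all tested genes were called lower. Ptprc, the pan-leukocyte antigen CD45, stood at 48.3 and 23.4 CPM against 1742 and 1190 CPM. The Lgr6-negative libraries were thus low in epithelial markers and high in leukocyte markers, and fewer epithelial cells and less keratin RNA per cell cannot be told apart in bulk RNA. The part of this makeup in the keratin differences was not tested.

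In Lgr6-positive libraries, keratins took 0.601% and 0.576% of all counts, with 95% Wilson intervals of 0.595% to 0.607% and 0.570% to 0.581%. In the Lgr6-negative libraries the shares were 0.0286% (0.0274% to 0.0299%) and 0.0210% (0.0200% to 0.0221%). Such intervals, and the floors below, cover counting error only, since amplified reads are not independent molecules. The totals behind these shares include Rn45s, the ribosomal RNA precursor. Rn45s took 17.2% and 14.5% of Lgr6-positive and 18.7% and 30.8% of Lgr6-negative counts, most in Lgr6-negative replicate 2. The summed keratin level was 5024 and 5103 CPM in Lgr6-positive and 309 and 268 CPM in Lgr6-negative libraries, or 5064 ± 56.2 against 288 ± 29.5 CPM (given, as in all values below, as mean ± SD over n = 2 libraries). The log2 ratio was 4.13, and the groups did not overlap. With 2 libraries against 2, an exact permutation test cannot go below a two-sided p of 0.333, so sums and shares are given without a test.

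At least 1 count was found for 24 and 20 keratins in the Lgr6-positive and for 14 and 10 in the Lgr6-negative libraries. Of the 52 keratins, 27 had no counts in any library, 6 had counts but fell below the count filter, and 19 were tested. Of the 6, 3 are described below and the other 3 had at most 6 counts in a library. In edgeR's quasi-likelihood test, with Benjamini-Hochberg adjustment over all 11661 tested genes, 13 keratins rose in Lgr6-positive cells and 0 fell, 5 of type I and 8 of type II. At an unadjusted p under 0.05 there were 17. Over all tested genes 4.49% were called higher and 9.06% in either direction. Both Lgr6-positive libraries lay above both Lgr6-negative libraries for 17 of the 19, against 30.0% of all tested genes. A keratin that passed the filter only through the Lgr6-positive libraries had to differ, so the count describes the 19 and is no support by itself. For the same reason the median log2 fold change of the 19 is a description. It was 6.03, or 5.09 with genes lacking Lgr6-negative counts at their bound, against 0.10 over all tested genes. All 13 passed in each of the 12 alternative analyses, with a highest adjusted p of 0.0225.

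**Figure D1:**
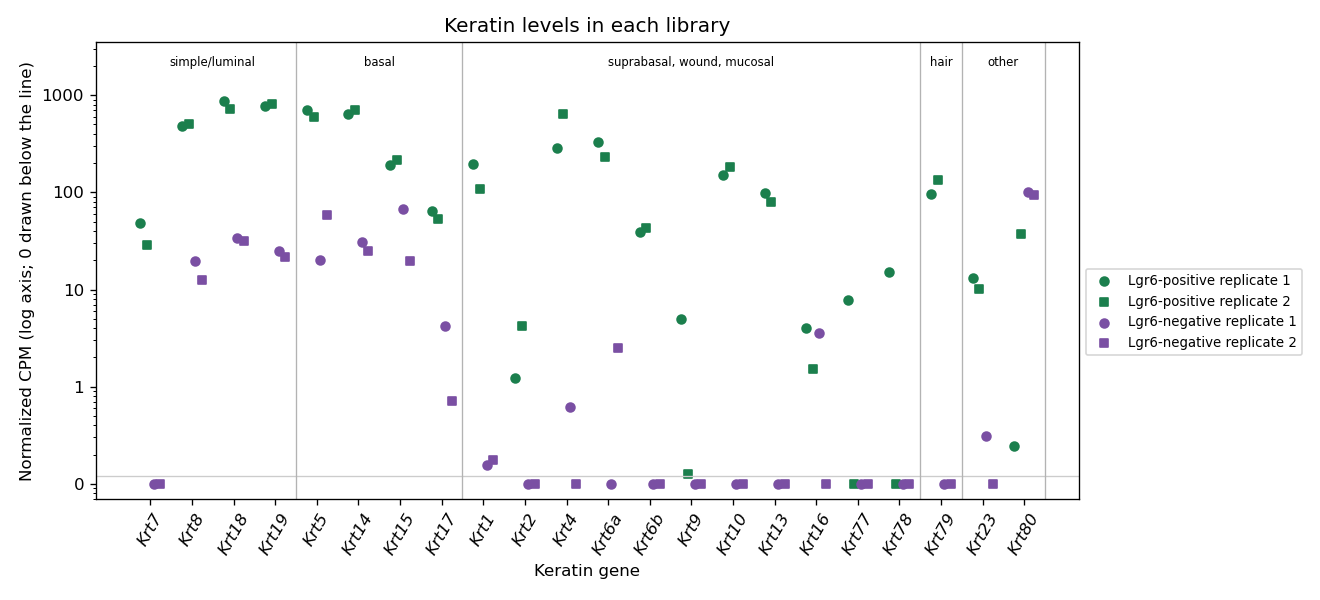
Normalized CPM (log axis, 0 drawn below the grey line) of each keratin that was tested or had at least 10 counts in a library, by keratin class; circles are replicate 1 and squares replicate 2, green Lgr6-positive and purple Lgr6-negative. Green points lie above purple ones for 17 of the 19 tested keratins, Krt16 overlaps, and both purple points of Krt80 lie above both green ones.

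The simple and luminal keratins rose together: all 4 tested of 5 members passed, against 4.49% of all tested genes called higher. Krt20, an intestinal and urothelial keratin, had no counts. Krt18, the type I luminal partner, was at 872 and 723 CPM in Lgr6-positive and 34.0 and 31.6 CPM in Lgr6-negative libraries. The groups were far apart and the replicates close, at 797 ± 105 against 32.8 ± 1.68 CPM. The log2 fold change, Lgr6-positive over Lgr6-negative throughout, was 4.60 (SE 0.40, adjusted p = 0.000555). Krt8, its type II partner, was at 486 and 502 CPM against 19.8 and 12.4 CPM, a log2 fold change of 4.94 (SE 0.50, adjusted p = 0.000978). Both partners therefore differed by a similar amount, 24.3-fold for Krt18 and 30.6-fold for Krt8. Krt19, the smallest keratin and a marker of luminal cells that pairs with Krt8, was at 773 and 818 CPM against 25.1 and 21.5 CPM. It had a log2 fold change of 5.09 (SE 0.41, adjusted p = 0.000481). Krt7, the type II keratin of ductal and glandular epithelia, had 396 and 227 counts in Lgr6-positive and 0 in both Lgr6-negative libraries. Against a floor of 3 counts per library it was at least 77.2-fold higher (adjusted p = 0.0206). Krt8 shares 26.9% of its 50-base words with other transcripts, mostly its pseudogene Krt8-ps, while Krt7 and Krt19 share none. The expected counts of Krt8 were whole numbers in all 4 libraries, and a split of its reads with that copy was not tested.

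Of the 4 basal keratins, 2 rose and 2 did not pass, against 4.49% of all tested genes called higher. Krt14, the type I basal partner, was at 637 and 701 CPM in Lgr6-positive and 30.6 and 24.9 CPM in Lgr6-negative libraries, with a log2 fold change of 4.59 (SE 0.42, adjusted p = 0.000685). Krt5, its type II partner, was at 703 and 596 CPM against 20.3 and 59.2 CPM, with a log2 fold change of 4.03 (SE 0.57, adjusted p = 0.00400). For both, every Lgr6-positive library lay well above every Lgr6-negative one. The Krt5 value leaned on the Lgr6-negative replicates, with 3.44 without replicate 1 and 4.98 without replicate 2, and it passed in both cases. Krt15, a type I keratin of basal progenitor cells in several stratified epithelia, was at 190 and 215 CPM against 68.2 and 19.6 CPM. The Lgr6-negative replicates differed by more for Krt15 than for Krt14, and its log2 fold change of 2.21 (SE 0.69) did not pass (adjusted p = 0.0808). Krt17, a type I keratin of appendages and of basal cells under stress, was at 64.6 and 53.1 CPM against 4.21 and 0.711 CPM. Its log2 fold change of 4.56 (SE 1.30) did not pass either (adjusted p = 0.0632), from 27 and 4 counts in the Lgr6-negative libraries. In both genes the lowest Lgr6-positive value exceeded the highest Lgr6-negative value, as in 30.0% of all tested genes. Without Lgr6-negative replicate 1 the log2 fold change of Krt15 was 3.36 and that of Krt17 was 6.32, and without Lgr6-negative replicate 2 they were 1.55 and 3.78. The adjusted p of Krt15 ran from 0.00517 to 0.254 over the 12 alternatives, passing in 6, and that of Krt17 from 0.000376 to 0.151, passing in 5.

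The balance of basal to luminal keratins was read within each library, where scaling cancels. Per kilobase of transcript, Krt5 and Krt14 made up 44.8% and 47.4% of the sum of Krt5, Krt14, Krt8 and Krt18 in Lgr6-positive libraries and 44.6% and 59.5% in Lgr6-negative libraries. The means of 46.1 ± 1.80% and 52.0 ± 10.5% differed by less than the spread of the Lgr6-negative replicates, and the groups overlapped. By counts the shares were 49.7% (Wilson interval 49.0% to 50.3%), 51.4% (50.7% to 52.1%), 48.6% (44.8% to 52.4%) and 65.6% (62.1% to 69.0%). Lgr6-negative replicate 2 stood apart through Krt5. The ratio of Krt5 to Krt14 per kilobase was 1.84 there, against 0.513 in the other Lgr6-negative library and 0.854 and 0.657 in the Lgr6-positive ones. The ratio of Krt8 to Krt18 per kilobase ran from 0.289 in Lgr6-negative replicate 2 to 0.510 in Lgr6-positive replicate 2. Krt14 to Krt18 ran only from 0.618 to 0.821, with the Lgr6-negative libraries at 0.761 and 0.666, inside the Lgr6-positive range. The Lgr6-positive libraries thus held luminal and basal keratin RNA side by side, and for the share of these 4 genes a difference from Lgr6-negative cells was not detectable. The whole luminal and basal classes, which add Krt7, Krt19, Krt15 and Krt17, did differ in their shares of keratin counts, as given with the class shares below. Without Lgr6-negative replicate 2 the Lgr6-positive 4-gene share was the higher by 1.48 percentage points, while with it the difference was -5.93 points.

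Of the 14 suprabasal epidermal, wound and mucosal keratins, 8 were tested and 6 rose, against 4.49% of all tested genes called higher. The 6 passed the count filter only through the Lgr6-positive libraries and had to differ, so this count is a description. The sum over the 14 was 1139 and 1287 CPM in Lgr6-positive and 4.37 and 2.67 CPM in Lgr6-negative libraries. The Lgr6-negative values rest on 28 and 15 counts, of which Krt16 gave 23 in replicate 1 and Krt6a gave 14 in replicate 2. Both genes have uncertain counts through shared sequence, as given below. Both Krt1 and Krt10, the pair of differentiating epidermis, were among the 6. Krt10, of type I, had 1244 and 1432 counts in Lgr6-positive and 0 in both Lgr6-negative libraries, and thus lay at least 334-fold higher (adjusted p = 0.00125). Krt1, of type II, had 1614 and 850 counts against 1 and 1, giving a ratio of 924 (95% counting interval 256 to 7634) (adjusted p = 0.00125). The partners were present in both Lgr6-positive libraries, at a per-kilobase ratio of Krt1 to Krt10 of 1.11 and 0.506. Krt2, a type II keratin of the upper epidermis, had only 10 and 33 counts against 0 and 0. It was at least 5.40-fold higher, with an adjusted p of 0.146 that missed the threshold.

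Krt4 and Krt13, the pair of moist stratified epithelia, were both high in Lgr6-positive cells. Krt4, of type II, had 2340 and 5034 counts in Lgr6-positive and 4 and 0 in Lgr6-negative libraries, or 287 and 638 CPM against 0.624 and 0 CPM. The fit gave a log2 fold change of 10.39 (SE 1.04, adjusted p = 0.000957). Krt4 rested on 4 Lgr6-negative counts: without Lgr6-negative replicate 1 it was at least 867-fold higher, against a fitted 1344-fold, and without Lgr6-positive replicate 2 its log2 fold change was 9.68. Krt13, of type I, had 810 and 632 counts against 0 and 0 and was at least 179-fold higher (adjusted p = 0.00420). The replicates differed in the balance of this pair, with a per-kilobase ratio of Krt4 to Krt13 of 2.24 in replicate 1 and 6.18 in replicate 2.

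Krt6a and Krt6b, type II keratins of wounded epidermis and hair follicles, rose, whereas Krt16, a type I partner of theirs, was low in every library. Krt6a was at 330 and 230 CPM against 0 and 2.49 CPM, with a log2 fold change of 7.83 (SE 1.28, adjusted p = 0.00756). All 14 of its Lgr6-negative counts lay in replicate 2, and without that library it was at least 598-fold higher, against a fitted 227-fold; without Lgr6-negative replicate 1 its log2 fold change was 6.79. Krt6b had 320 and 343 counts against 0 and 0 and was at least 82.6-fold higher (adjusted p = 0.0171). Krt16 was at 4.05 and 1.52 CPM against 3.59 and 0 CPM. Its groups overlapped, its log2 fold change was 0.62 (SE 2.22, adjusted p = 0.917), and the sign turned without Lgr6-positive replicate 1 (-0.24) or Lgr6-negative replicate 2 (-0.39). Krt6a thus exceeded Krt16 by 56.0 and 104 times per kilobase in the Lgr6-positive libraries, and type II Krt6a was not matched by a like level of Krt16.

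Counts of these genes are less certain because stretches of their transcripts are identical and a read there can be assigned to either gene. Some of the stretches are printed to show what the counting had to separate. Krt6a and Krt6b share a run of 280 bases in the coding part of exon 1 (GENCODE M21 transcripts, GRCm38, both on the minus strand, chr15:101693936-101694215 in Krt6a and chr15:101679911-101680190 in Krt6b). Krt14 and Krt16 share 134 coding bases of exon 1 (minus strand, chr11:100207017-100207150 in Krt14 and chr11:100248476-100248609 in Krt16).
Krt6a and Krt6b: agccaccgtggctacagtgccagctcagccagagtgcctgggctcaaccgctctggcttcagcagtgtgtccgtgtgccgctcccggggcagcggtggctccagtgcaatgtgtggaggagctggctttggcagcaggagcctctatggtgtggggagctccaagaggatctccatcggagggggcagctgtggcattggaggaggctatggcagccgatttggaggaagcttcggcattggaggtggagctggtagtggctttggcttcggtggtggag
Krt14 and Krt16: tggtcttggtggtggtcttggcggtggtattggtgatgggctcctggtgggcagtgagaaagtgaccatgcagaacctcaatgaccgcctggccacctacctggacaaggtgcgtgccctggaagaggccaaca
Of all 50-base words, 49.5% in Krt6a, 50.1% in Krt6b and 37.6% in Krt16 occur in another gene's transcripts, mostly the other Krt6 gene for the Krt6 pair and the gene model Gm11597 for Krt16. For Krt14 the share was 14.4%, for Krt5 8.52% and for Krt17 3.99%, and Krt1, Krt4, Krt10 and Krt13 shared none. Krt5 and Krt6a also share a coding run of 140 bases, which is not printed. The expected counts of Krt16 were fractional (32.52, 12.12, 23.12 and 0), which is how split reads appear. In Lgr6-negative replicate 1 that of Krt14 (195.88) was fractional too, as were Krt5 (332.84) and Krt6a (14.16) in replicate 2. The split between Krt6a and Krt6b, the Lgr6-negative counts of Krt6a and the small Krt16 counts are therefore uncertain. The levels of Krt1, Krt10, Krt4 and Krt13 do not rest on such words. Exons of other gene models also overlap 24.8% of Krt6a and 6.91% of Krt10, and no source used here gives the strand setting of the counting.

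Further suprabasal members were detected mainly in 1 library. Krt9, of palm and sole epidermis, had 41 and 1 counts in Lgr6-positive and 0 in Lgr6-negative libraries. Krt77 had 63 counts and Krt78 had 123, in both cases all in Lgr6-positive replicate 1. None of the 3 passed the filter, and Lgr6-positive replicate 2 stood low or at 0 in each. Unlike Krt1 and Krt10, which had at least 850 counts in each Lgr6-positive library, these genes were found almost entirely in replicate 1.

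Some other markers of keratinocytes were high in the same libraries. Of 12 such genes without keratins, 3 rose, 2 did not pass and 7 were not tested, against 4.49% of all tested genes called higher. The 3 that rose passed the count filter only through the Lgr6-positive libraries. They had to differ, so this count is a description and no support by itself. The summed level of all 12 genes was 224 and 387 CPM in Lgr6-positive and 9.99 and 2.67 CPM in Lgr6-negative libraries. Sprr1a, a cornified envelope precursor, had 1145 and 2161 counts against 0 and 2, giving a ratio of 1240 (95% counting interval 343 to 10241) (adjusted p = 0.00153). Calml3, a calmodulin-like protein of epithelia, was at least 84.1-fold higher (adjusted p = 0.0167), and Krtdap, a secreted keratinocyte protein, at least 69.6-fold higher (adjusted p = 0.0252). Dsg1a, a desmosomal cadherin of upper epidermis, had 55 and 17 counts against 0 and 0 and did not pass (adjusted p = 0.125). Dmkn, a secreted epidermal protein, overlapped between groups, at 2.08 and 22.9 CPM against 9.83 and 1.24 CPM (adjusted p = 0.786), and Sbsn, which was not tested, overlapped as well. The terminal differentiation genes Lor, Lce1a1 and Sprr1b had no counts in any library, and Ivl had 8 counts in Lgr6-positive replicate 1 alone. The part of other stratified epithelial cells in the suprabasal keratin values was not tested.

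Of the 25 keratins of hair and root sheath, 23 had no counts in any library. Krt33a, of the hair cortex, had 2 counts in 1 Lgr6-negative library. Krt79, a type II keratin known from the hair follicle canal and sebaceous duct, was the exception, with 781 and 1048 counts in Lgr6-positive and 0 in both Lgr6-negative libraries. It was at least 228-fold higher (adjusted p = 0.00267). For each keratin at 0, the floor of 3 counts allowed at most 0.368 to 0.533 CPM per library.

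Krt80, a type II keratin that appears with differentiation in many epithelia, was the only tested keratin with both Lgr6-negative libraries above both Lgr6-positive ones. Over all tested genes, 25.9% had this order. Krt80 was at 0.245 and 37.0 CPM in Lgr6-positive and 102 and 94.9 CPM in Lgr6-negative libraries. The Lgr6-negative replicates were close (98.3 ± 4.81 CPM) and the Lgr6-positive ones far apart (18.6 ± 26.0 CPM), with 2 and 292 counts. The log2 fold change of -2.40 (SE 1.50) did not pass (adjusted p = 0.389). Lgr6-positive replicate 2 decided this value: without it Krt80 was called lower in Lgr6-positive cells (adjusted p = 1.11e-07), and the Lgr6-negative level was 402 times that of replicate 1, with a 95% counting interval of 111 to 3322. Against replicate 2 alone, the Lgr6-negative mean was 2.66 times as high. Krt80 shared none of its 50-base words with other transcripts, and other gene models overlap 4.11% of its exons. Krt23, a type I keratin of glandular epithelia, had 106 and 80 counts against 2 and 0. Its ratio was 69.7, with a 95% counting interval of 19.0 to 580.2, and did not pass (adjusted p = 0.145).

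**Figure D2:**
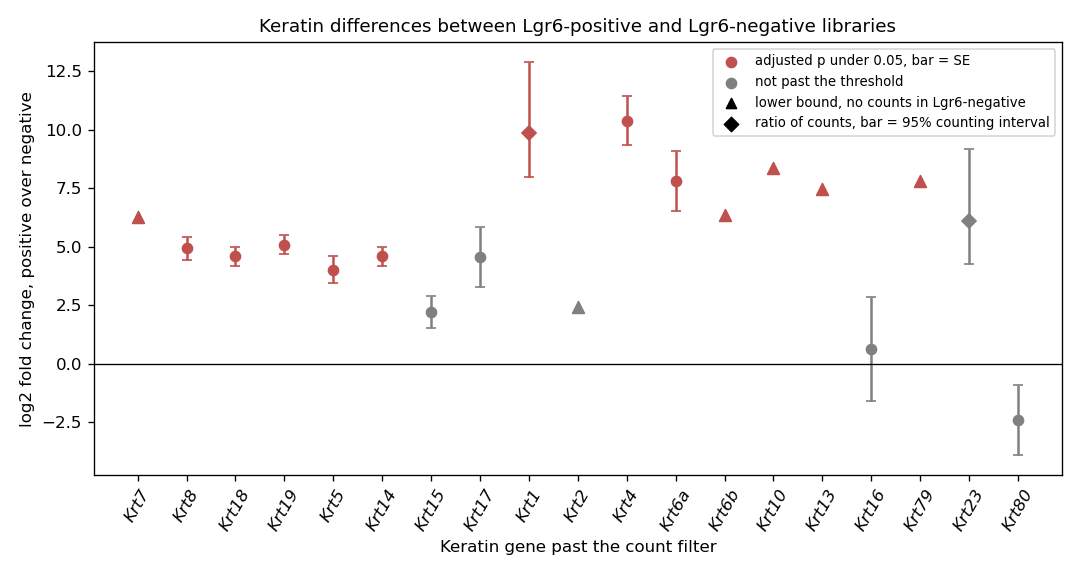
Log2 fold change (Lgr6-positive over Lgr6-negative) of the 19 tested keratins, with SE bars for fitted values (circles), 95% counting intervals for ratios of counts (diamonds) and triangles for lower bounds of genes without Lgr6-negative counts; red marks an adjusted p under 0.05. The 13 red keratins lie above 0, from 4.03 for Krt5 to 10.39 for Krt4, and Krt80 alone lies below 0.

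Within the keratin counts, the classes made up different shares in the 2 groups. Simple and luminal keratins took 43.4% and 40.6% of keratin counts in Lgr6-positive and 25.5% and 24.5% in Lgr6-negative libraries. Basal keratins took 31.7% and 30.7% against 39.9% and 39.0%. The Lgr6-negative basal counts were mostly Krt15 in replicate 1 (437 of 790) and mostly Krt5 in replicate 2 (333 of 587). Suprabasal, wound and mucosal keratins took 22.7% and 25.2% (Wilson intervals 22.3% to 23.1% and 24.8% to 25.6%) against 1.41% (0.979% to 2.03%) and 0.997% (0.605% to 1.64%). In none of the 3 classes did the groups overlap. Krt80 alone took 32.9% (30.9% to 35.0%) and 35.5% (33.1% to 37.9%) of Lgr6-negative keratin counts and 0.00488% and 0.725% of Lgr6-positive ones, so it sets part of the lower shares of the other classes. With only the 3 layer classes in the denominator, the suprabasal share was still 23.2% and 26.1% against 2.11% (1.47% to 3.04%) and 1.54% (0.938% to 2.53%). Luminal and basal shares were not recomputed in this way. In counts, luminal keratins (17780 and 16348) exceeded basal ones (13007 and 12355) in Lgr6-positive libraries. The Lgr6-negative libraries had the reverse order, with 506 and 369 luminal against 790 and 587 basal counts. As sums, luminal keratins were 29.4-fold higher in Lgr6-positive cells (2126 ± 76.9 against 72.3 ± 9.44 CPM). Basal keratins were 13.9-fold higher (1580.2 ± 20.8 against 114 ± 13.4 CPM) and suprabasal ones 345-fold higher (1213 ± 104 against 3.52 ± 1.204 CPM). Most of the Lgr6-negative suprabasal counts were Krt16 in replicate 1 (23 of 28) and Krt6a in replicate 2 (14 of 15). Counts of both genes are uncertain through shared sequence, so this fold and the Lgr6-negative suprabasal shares are uncertain too.

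**Figure D3:**
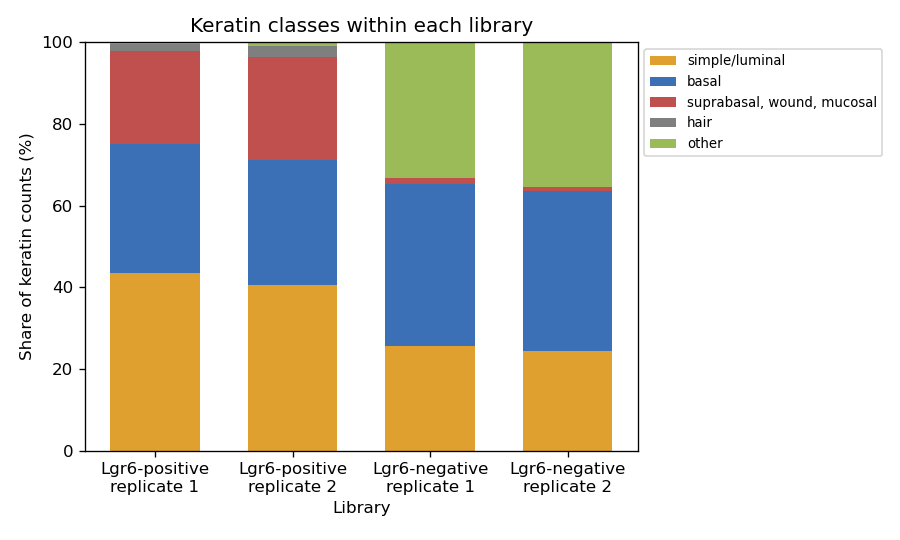
Share of all keratin counts (%) taken by each keratin class in each of the 4 libraries. The suprabasal, wound and mucosal class (red) takes 22.7% and 25.2% in the Lgr6-positive libraries and 1.41% and 0.997% in the Lgr6-negative ones, where Krt80 fills nearly all of the class named other.

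Between genes, levels were ranked per kilobase of transcript, as CPM per kilobase. In Lgr6-positive cells Krt18 (554.8 ± 73.4) and Krt19 (504.8 ± 19.8) led, and the ranges of their libraries overlapped. Krt14 (394 ± 26.6) and Krt5 (296 ± 34.5) followed, each apart from its neighbours. Krt8 (252 ± 5.81) and Krt4 (217 ± 116) overlapped each other. Next came Krt6a at 123 ± 30.9, Krt15 at 119 ± 10.6, Krt10 at 79.8 ± 9.76 and Krt1 at 62.2 ± 26.0. In Lgr6-negative cells the order differed: Krt80 (32.1 ± 1.57) had the highest mean, before Krt15 (25.8 ± 20.2), Krt18 (22.8 ± 1.17), Krt5 (18.1 ± 12.5), Krt14 (16.3 ± 2.37) and Krt19 (14.8 ± 1.62). Each of these overlapped the next in its libraries. Krt8 (8.24 ± 2.66) lay below them, and every other keratin averaged 1.59 or less. Type I keratins made up 63.7% and 61.8% of all keratin level per kilobase in Lgr6-positive and 66.1% and 48.8% in Lgr6-negative libraries, and the groups overlapped.

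The family lies in a type I cluster on chromosome 11 (27 members, 8 tested) and a type II cluster on chromosome 15 (24 members, 11 tested, among them Krt18, the type I gene at its edge). Positions were matched for 51 members, all but Krt85. In parts of both clusters, genes with high and with no counts formed runs, which were not tested. On chromosome 15, Krt6b, Krt6a and Krt5 (chr15:101707070-101712898, minus strand) lie next to each other, 9622 and 12762 bases apart, and all rose. The 4 genes after Krt5, which are Krt71 to Krt74, had no counts. Krt8 (chr15:101996698-102004482, minus strand) and Krt18 (chr15:102028180-102032027, plus strand) lie 23697 bases apart and both rose. On chromosome 11, Krt13, Krt15 and Krt19 (chr11:100140810-100148665) are neighbours, and all had counts in both Lgr6-positive libraries. The hair keratins just before them, from Krt33b to Krt36, had none. Elsewhere on chromosome 11 the pattern broke, as Krt10 and Krt23 had counts while the members on either side of each had none.

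Promoter letters were compared with expression because members of the family moved together. RefSeq promoters of GRCm38.p6, the 250 bases before the start of transcription, were at hand for 35 members. The exact TATA box letters TATAAA, searched on both strands, occurred in 17 of the 35 (48.6%), against 12.4% of all 32851 promoters of that length. In Krt84 and Krt72 the letters lie only on the opposite strand, 206 and 203 bases upstream. TATAAA occurred in 1 of the 10 tested keratins with an entry, Krt10, and in 16 of the 25 that were not tested, most of them hair keratins without counts. The AP-1 letters TGANTCA occurred in 1 member, Krt13, against 6.75% of all promoters. The Sp1 letters GGGCGG occurred in 2, Krt7 and Krt75, against 32.7%. The entries of Krt14 and Krt7 start 1518 and 1360 bases from the GENCODE start, so their windows lie within the annotated gene, and that of Krt8 starts 140 bases inside it. Matches are letters only and say nothing of binding. Near forms were not counted, such as the ataaaa in the Krt5 and Krt13 promoters printed below. The counts therefore do not show which promoters lack a TATA box. The 4 promoters below show the contrast between a hair keratin without counts (Krt25), the 1 tested keratin with the letters (Krt10), the abundant basal Krt5 without them, and Krt13 with its AP-1 letters; the matched letters are in capitals. They lie at chr11:99322952-99323201 (minus strand), chr11:99389365-99389614 (minus), chr15:101712906-101713155 (minus) and chr11:100121567-100121816 (minus).
Krt25: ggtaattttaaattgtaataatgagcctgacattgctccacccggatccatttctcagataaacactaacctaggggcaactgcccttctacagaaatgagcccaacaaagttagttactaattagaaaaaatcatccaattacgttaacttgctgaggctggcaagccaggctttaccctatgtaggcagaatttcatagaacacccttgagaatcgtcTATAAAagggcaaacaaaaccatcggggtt
Krt10: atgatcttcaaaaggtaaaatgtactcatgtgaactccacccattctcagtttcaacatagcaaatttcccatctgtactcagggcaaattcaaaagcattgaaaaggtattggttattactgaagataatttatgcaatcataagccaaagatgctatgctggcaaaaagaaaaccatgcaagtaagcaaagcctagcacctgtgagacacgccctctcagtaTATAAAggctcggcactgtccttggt
Krt5: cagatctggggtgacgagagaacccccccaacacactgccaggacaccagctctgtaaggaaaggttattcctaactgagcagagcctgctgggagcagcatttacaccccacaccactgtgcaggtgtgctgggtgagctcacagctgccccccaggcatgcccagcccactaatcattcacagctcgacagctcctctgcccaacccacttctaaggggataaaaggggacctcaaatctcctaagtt
Krt13: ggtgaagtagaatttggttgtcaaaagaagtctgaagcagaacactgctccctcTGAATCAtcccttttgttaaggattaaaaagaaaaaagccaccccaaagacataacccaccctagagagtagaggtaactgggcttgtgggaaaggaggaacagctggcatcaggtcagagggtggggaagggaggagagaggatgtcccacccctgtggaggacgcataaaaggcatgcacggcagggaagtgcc
In Krt25 the letters begin 30 bases and in Krt10 26 bases upstream of the start. In Krt13 the AP-1 letters shown begin 196 bases upstream.

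Keratin filaments are held at desmosomes and hemidesmosomes by linker proteins, and several of their genes rose as well. Of 18 genes for anchoring and cross-linking, all tested, 10 rose, 0 fell and 8 did not pass, against 4.49% of all tested genes called higher; their median log2 fold change was 3.15 against 0.10. Dst, which encodes the hemidesmosomal linker BPAG1, was at 596 and 840 CPM in Lgr6-positive and 72.7 and 72.9 CPM in Lgr6-negative libraries. The log2 fold change of Dst was 3.30 (SE 0.39, adjusted p = 0.00191). Dsp, desmoplakin, which ties keratins to desmosomes, was at 605 and 1239 CPM against 58.5 and 31.1 CPM. For Dsp the log2 fold change was 4.36 (SE 0.52, adjusted p = 0.00194), and 3.73 without Lgr6-positive replicate 2. Eppk1, epiplakin, which binds keratin bundles, was at 469 and 353 CPM against 7.49 and 27.2 CPM. Its log2 fold change was 4.57 (SE 0.69, adjusted p = 0.00512), with 3.90 without Lgr6-negative replicate 1 and 5.76 without replicate 2. Ppl, periplakin, of the cornified envelope, was at 122 and 167 CPM against 10.6 and 6.22 CPM, a log2 fold change of 4.10 (SE 0.75, adjusted p = 0.0122). In all 4 genes, named for their small p-values, both Lgr6-positive libraries lay above both Lgr6-negative ones, as in 30.0% of all tested genes. Of the 8 that did not pass, 7 had positive values, and Tchp, trichoplein, which was picked out for its sign, had a log2 fold change of -2.95 (SE 2.36, adjusted p = 0.524).

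**Figure D4:**
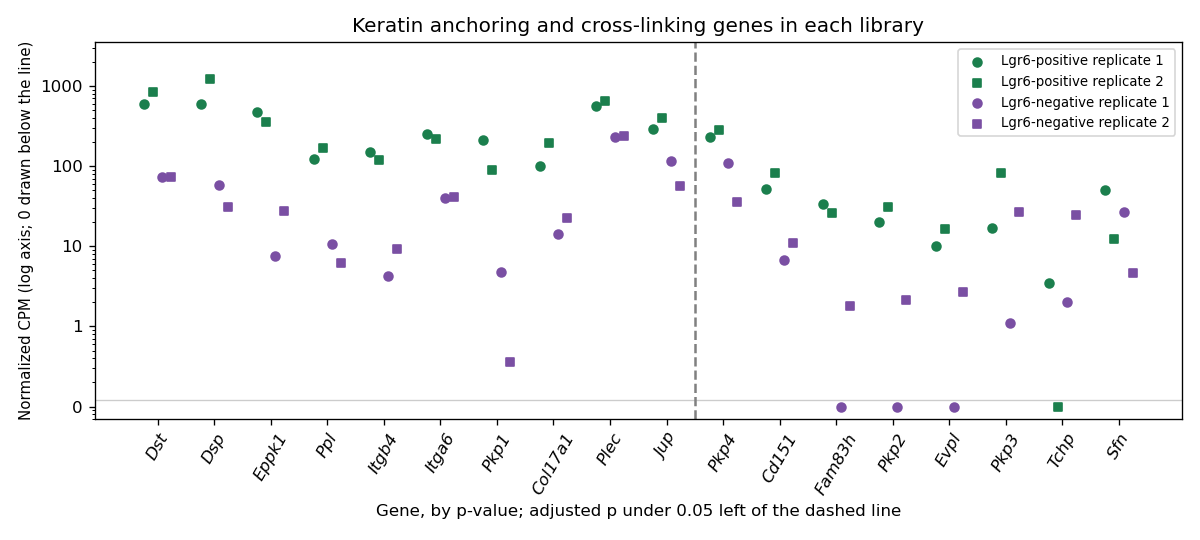
Normalized CPM (log axis, 0 drawn below the grey line) of the 18 anchoring and cross-linking genes in the 4 libraries, ordered by p-value, with the 10 that rose left of the dashed line; green is Lgr6-positive, purple Lgr6-negative. Both green points of Dst (596 and 840) and of Dsp (605 and 1239) lie above both purple points.

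Among genes for intermediate filaments of other classes, 16 were followed and 7 were tested: 1 rose, 1 fell and 5 did not pass, against 4.49% of tested genes called higher and 4.57% called lower. Vim, vimentin, the filament of mesenchymal cells and leukocytes, was at 631 and 711 CPM in Lgr6-positive and 2000 and 1935 CPM in Lgr6-negative libraries. It fell by 1.55 on the log2 scale (SE 0.26, adjusted p = 0.00760). Lmna, the nuclear lamins A and C, was at 275 and 264 CPM against 87.2 and 55.6 CPM. It rose by 1.92 (SE 0.49, adjusted p = 0.0443), a call lost without Lgr6-negative replicate 2 (1.61, adjusted p = 0.168). Nes, nestin, had 68 and 268 counts against 0 and 2 (adjusted p = 0.101), and Lmnb2, lamin B2, had 132 and 69 against 2 and 0 (adjusted p = 0.138); neither passed.

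Transcription factors of epithelia were followed because several of them are known to act on keratin genes. Of 16 such genes 14 were tested, 6 rose, 0 fell and 8 did not pass, against 4.49% of all tested genes called higher. Of these 8, 7 had positive values. The other, Klf4, a factor of differentiating epithelia and of myeloid cells that is named for its sign, was at 286 and 187 CPM in Lgr6-positive and 577 and 635 CPM in Lgr6-negative libraries. Klf4 had a log2 fold change of -1.36 (SE 0.37, adjusted p = 0.0562), with an adjusted p of 0.0432 in DESeq2 and 0.0265 in limma-voom and a range of 0.00556 to 0.192 over the alternatives. Ehf, an epithelial ETS factor, was at 334 and 452 CPM in Lgr6-positive and 13.7 and 3.56 CPM in Lgr6-negative libraries. Ehf had a log2 fold change of 5.50 (SE 0.74, adjusted p = 0.00309), with 6.77 without Lgr6-negative replicate 1 and 4.82 without replicate 2. Tfap2a, encoding AP-2 alpha of epidermis, was at 96.0 and 270 CPM against 4.84 and 7.47 CPM. Its log2 fold change was 4.89 (SE 0.80, adjusted p = 0.00761), and 3.93 without Lgr6-positive replicate 2. Trp63, the p63 factor of basal and stratified epithelial cells, was at 162 and 135 CPM against 10.8 and 8.35 CPM, with a log2 fold change of 3.95 (SE 0.71, adjusted p = 0.0112). Gata3, a luminal factor of the mammary gland, was at 112 and 184 CPM against 2.96 and 8.18 CPM. Its log2 fold change was 4.73 (SE 0.86, adjusted p = 0.0114), and 5.62 without Lgr6-negative replicate 2. Basal and luminal factors were thus both higher in the Lgr6-positive libraries. The groups did not overlap in these 4 genes, which were named for their small p-values; 30.0% of all tested genes had both Lgr6-positive libraries above. In limma-voom the calls of Tfap2a (adjusted p = 0.0901) and Gata3 (adjusted p = 0.0541) were lost.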

How the data were processed

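The deposited values are RSEM expected counts for each gene, with no scaling for depth. Per the submitters' processing notes, the authors used RSEM 1.2.22, STAR 2.4.2a and build mm10; annotation and strand setting are not given in these sources. Between 3.36% and 4.86% of genes per library had fractional values, and values were rounded. edgeR 4.0.16 (R 4.3.3) used TMM scaling, filterByExpr (minimum count 10, minimum total 15), glmQLFit and glmQLFTest on group alone, and an adjusted p under 0.05 over 11661 genes. SE is the log2 fold change (absolute) divided by the root of F. Genes without Lgr6-negative counts were given bounds from 3 counts per library, and those with 1 to 3 counts a ratio with a 95% counting interval.

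Every tested keratin is named, as is each untested keratin with at least 10 counts in a library; of the other lists, the tested members of smallest p-value, at most 4 each, beside Lgr6, Epcam and Ptprc. Other names were chosen after their values were seen. The members and lists were chosen with earlier results of these data known. Positions and lengths came from GENCODE M21 (23362 of 24442 symbols matched). The edgeR fit was run on simulated counts. Recovery of the simulated fold changes was checked only at a dispersion, the modelled spread between replicates, far below the 0.795 of these libraries. Alternatives included DESeq2 1.42.0 and limma 3.58.1; other steps used Python 3.11.15 with pandas 2.3.3, numpy 2.4.6, scipy 1.17.1 and matplotlib 3.10.9.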

Additional observations from a re-analysis of the deposited data

How the results depend on the processing

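The number of keratins called was 13 to 16 over the 12 alternatives and always held the 13 reported. It reached 16 in DESeq2, with Krt15, Krt17 and Krt23 added, and 16 without Lgr6-positive replicate 2, with Krt15 and Krt17 higher and Krt80 lower. The number of anchoring genes called was 9 to 14. Among those lost, Plec failed without either Lgr6-negative replicate, Jup without replicate 2 of that group, Itgb4 in limma-voom, and Col17a1 in limma-voom, without Lgr6-positive replicate 2 (adjusted p = 0.127) and without Lgr6-negative replicate 1 (0.0637). Over all genes, 1057 were called, against 1821 with no count filter and 2404 in DESeq2. Leaving out 1 library gave 1218 to 1986, the highest without Lgr6-positive replicate 1. Scaling by library size alone moved the median log2 fold change of all genes from 0.10 to 0.56, made 65.8% of the calls higher against 49.6%, and put the log2 ratio of summed keratin level at 4.57 against 4.13. That ratio was 4.03 to 4.24 with 1 library left out. The difference in basal share, reported as -5.93 percentage points, was -13.3 to 1.48. The log2 fold change of Krt16 turned to -0.24 without Lgr6-positive replicate 1 and to -0.39 without Lgr6-negative replicate 2, and was 7.33 without Lgr6-negative replicate 1, a fitted value against 0 counts. In these cases the cause was not tested. A replicate block gave 1340 called genes, 15 keratins and 11 anchoring genes; the labels share only numbers, and deviations of same-numbered libraries correlated at -0.0202. With 2 libraries per group and 3 counts at 0.368 to 0.533 CPM, small differences were not detectable.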
